A study of Danio rerio with 18 samples.

Results

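Expression of 9 immediate early genes, fosab, fosb, fosl1a, fosl2, jun, junba, junbb, egr1 and atf3, and of btg2 was examined in sorted retinal pigment epithelium (RPE) of larval zebrafish after ablation of that tissue. The genes were taken by symbol, and each of the 10 symbols matched 1 of the 34326 genes in the deposited tables. All 10 were also among the 20093 genes that passed the filter on low counts. The 10 genes and the related lists were chosen with earlier results of these data known. Shares over all genes given beside them are therefore a background and not a test of the set. Averaged over 2, 4 and 7 days post-injury, btg2, egr1, fosab and junbb were lower in sorted cells of ablated than of unablated larvae. The calls of btg2 and egr1 held in all 18 fits that left out 1 library. Those of fosab and junbb each held in 14 of them. At 2 days post-injury fosl1a, fosl2 and atf3 were higher in ablated larvae when replicate libraries were compared in pairs, or by DESeq2 without pairs. The main test, edgeR without pairs, did not call these rises.

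Immediate early genes are transcribed within minutes of a growth signal or a stress, before any new protein has to be made, and their transcripts are short-lived. Fos proteins pair with Jun proteins to form the transcription factor AP-1, Atf3 is a related factor that can also pair with Jun proteins, and Egr1 is a zinc finger factor that is switched on by MAP kinase signalling. Btg2 belongs to the BTG/TOB family, whose members slow cell division and recruit the CCR4-NOT complex that shortens the tails of mRNAs. In mammals btg2 is transcribed in response to growth factors, so it is often grouped with the immediate early genes. The RPE is the pigmented layer behind the photoreceptors, which renews the visual chromophore and takes up shed photoreceptor membrane.

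Ablated larvae had been exposed to 10 mM metronidazole (MTZ) for 24 hours between 5 and 6 days post-fertilisation (dpf), and unablated larvae had received no MTZ. The drug kills cells that carry a bacterial nitroreductase. The labels describe the ablation as genetic without naming the transgene or its promoter, and they list no group that received the drug without losing RPE, so an effect of the drug and an effect of the ablation cannot be told apart. All larvae, ablated or not, had also been in 1.5X phenylthiourea, an inhibitor of pigment formation, from 0.25 to 5 dpf. At 2, 4 and 7 days post-injury (dpi) eyes were removed and dissociated, and at most 1000 cells with green fluorescence (eGFP) went into each library. There were thus 6 groups of 3 libraries, numbered 1 to 3 in the labels. The sequencing name of unablated 4 dpi replicate 1 calls it positive, but its treatment label was followed. Values at 4 dpi, averages over the times and counts of pairs rest on that label.

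Each library held between 21.9 and 60.4 M counts. RPE markers were abundant in all 18, with a summed level of 24 genes between 53742 and 190184 CPM (counts scaled to library size), although ttr, a marker of mammalian RPE, had no count in 13 of them. Levels are given in CPM after scaling between libraries. Fold changes are log2 values of ablated over unablated with a standard error (SE), from the quasi-likelihood test of edgeR fitted to all 20093 genes. That test returns no SE. It was derived as the absolute log2 fold change divided by the square root of the F statistic of the test. Adjusted p is the Benjamini-Hochberg value over all of them, and 0.05 was the threshold. Same-numbered libraries of a time deviated together, so the value from a fit with these 9 pairs as a block is given wherever it changes a call. The labels do not say whether the replicates are separate clutches, so p-values measure only the spread between these libraries. In a bulk sample fewer cells of a type and less RNA per cell cannot be told apart.

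Per transcript length, fosab was the most abundant of the 10 genes, with a mean of 555 TPM (transcript abundance scaled for gene length and library size) over the 18 libraries, followed by jun with 413 TPM and junbb with 374 TPM. In the middle stood btg2 with 203 TPM, egr1 with 177 TPM, junba with 150 TPM and fosl1a with 91.4 TPM. The mean TPM of fosl2 was 23.4, that of atf3 was 21.2 and that of fosb was 1.27. These means are over both treatments. All but fosb were counted in every library, but some levels were low. In unablated 2 dpi replicate 3 atf3, fosl1a and fosl2 had 1.88, 2.34 and 3.09 TPM, below the highest fosb level of 3.20 TPM.

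**Figure D1:**
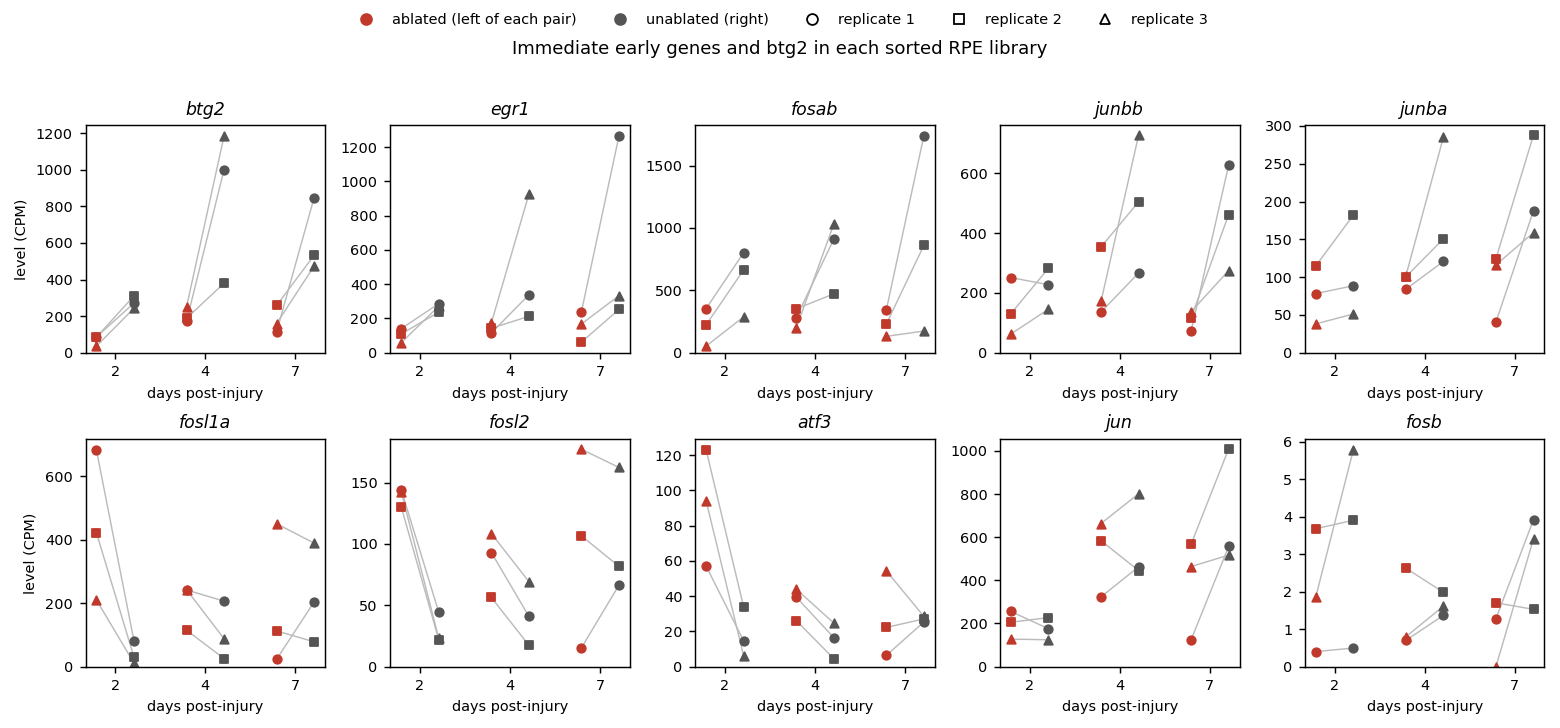
Level of each gene (y axis, CPM, linear, starting at 0, with its own scale in each panel) in the 18 libraries by days post-injury (x axis). Red points are ablated and grey points unablated libraries, symbols mark the replicate number and thin lines join libraries of the same number. In the btg2 and egr1 panels all red points lie below all grey points of the same time, and in the fosl1a, fosl2 and atf3 panels they lie above them at 2 dpi.

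btg2 (ENSDARG00000020298, chromosome 22, 756789 to 760665, minus strand, GRCz10) was lower in ablated cells at every time. At 2 dpi it stood at 85.9, 84.8 and 35.97 CPM in ablated replicates 1, 2 and 3, against 271, 310.3 and 243 CPM in the unablated ones. At 4 dpi the ablated libraries had 171, 188 and 249.7 CPM and the unablated libraries 1001, 380.0 and 1185 CPM. At 7 dpi the values were 114, 258 and 159 CPM in the ablated and 848, 533 and 474 CPM in the unablated libraries. The groups did not overlap at any time, and in 9 of 9 same-numbered pairs the ablated library was lower, with a ratio between 0.135 and 0.494. Were the labels of the 4 dpi replicate 1 pair exchanged, btg2 would be higher there when ablated and the groups would overlap. Only 0.528% of all tested genes were lower without overlap at all 3 times, and 4.69% were lower in all 9 pairs. Averaged over the times, the fall of btg2 was -1.96 (SE 0.28, adjusted p = 0.00113), and it remained past the threshold in each of 18 fits that left out 1 library. In the libraries whose sequencing names hold a date, which are replicates 2 and 3, the averaged value was -1.74 (adjusted p = 0.0130).

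At single times btg2 passed at 2 dpi without the block and at 2 and 4 dpi with it. At 2 dpi its fold change was -2.00 (SE 0.48, adjusted p = 0.0415), or -2.09 with the block (adjusted p = 0.00552). That call was lost in each of the 6 fits lacking 1 library of 2 dpi. Leaving out ablated replicate 1, 2 or 3 gave an adjusted p of 0.0672, 0.0964 or 0.152, and leaving out unablated replicate 1, 2 or 3 gave 0.0694, 0.129 or 0.0919. It was also lost among the libraries with a date (adjusted p = 0.0811) and in a fit of the 2 dpi libraries alone (adjusted p = 0.100). At 4 dpi the fold change was -2.08 (SE 0.49, adjusted p = 0.0862), and with the block it was -1.94 and past the threshold (adjusted p = 0.0143). At 7 dpi it was -1.80 (SE 0.48, adjusted p = 0.714), and the block gave 0.126.

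egr1 (ENSDARG00000037421, chromosome 14, 21035277 to 21039140, minus strand), which encodes the zinc finger factor, behaved much like btg2. Its level at 2 dpi was 141, 109.6 and 58.4 CPM in the ablated and 286, 237 and 272 CPM in the unablated libraries. The 4 dpi values were 115, 143 and 174 CPM in the ablated and 338, 212 and 925 CPM in the unablated libraries. The 7 dpi libraries had 240.0, 61.97 and 167 CPM when ablated and 1265, 253 and 333 CPM when unablated. Here too the groups were apart at each time, and all 9 pairs were lower in the ablated library, with ratios of 0.188 to 0.673. Unablated 4 dpi replicate 3 and unablated 7 dpi replicate 1 were far above the other unablated libraries of their time. Over the 3 times egr1 fell by 1.71 on the log2 scale (SE 0.38, adjusted p = 0.0116), a call kept in all 18 fits that left out 1 library and among the libraries with a date (-1.58, adjusted p = 0.0290). The fold change was -1.37 at 2 dpi (adjusted p = 0.305, with the block 0.0275), -1.77 at 4 dpi (adjusted p = 0.284, with the block 0.0362) and -1.98 at 7 dpi (adjusted p = 0.714). With 1 library left out it ran from -1.67 to -1.05 at 2 dpi, from -2.07 to -0.91 at 4 dpi and from -2.42 to -0.89 at 7 dpi, the smallest falls at the later times being those without the high unablated 4 dpi replicate 3 and the high unablated 7 dpi replicate 1.

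Among the Fos genes, fosab (ENSDARG00000031683, chromosome 20, 46648591 to 46650720, minus strand), one of the zebrafish counterparts of mammalian FOS, was the one that fell. It had 353, 223 and 52.95 CPM in the ablated and 802, 664 and 288 CPM in the unablated libraries at 2 dpi. At 4 dpi the values were 280.2, 351 and 197 CPM in the ablated and 909, 472 and 1029 CPM in the unablated libraries. At 7 dpi they were 342, 229 and 131 CPM in the ablated and 1737, 860.2 and 174 CPM in the unablated libraries. Every pair was lower when ablated, but the groups were apart only at 4 dpi: replicate 3 was low in both treatments at 2 and 7 dpi. The averaged fold change was -1.67 (SE 0.42, adjusted p = 0.0229). It missed the threshold without ablated 4 dpi replicate 1 (adjusted p = 0.0509), ablated 4 dpi replicate 3 (0.0544), unablated 7 dpi replicate 1 (0.0558) or ablated 7 dpi replicate 3 (0.0511), and among the libraries with a date (-1.56, adjusted p = 0.0804). By time the fold change was -1.48 at 2 dpi (adjusted p = 0.325, with the block 0.0222), -1.54 at 4 dpi (adjusted p = 0.425) and -1.98 at 7 dpi (adjusted p = 0.714). With 1 library left out the range was -2.10 to -0.99 at 2 dpi, -1.76 to -1.30 at 4 dpi and -2.43 to -1.12 at 7 dpi, where -1.12 was the value without unablated replicate 1.

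fosb (ENSDARG00000055751, chromosome 18, 36788762 to 36793723, plus strand) was low, with 0 to 149 counts per library. Its highest level was 5.78 CPM, in unablated 2 dpi replicate 3, and ablated 7 dpi replicate 3 had no count of it. Group means lay between 0.994 ± 0.887 CPM in ablated libraries at 7 dpi and 3.39 ± 2.68 CPM in the unablated libraries at 2 dpi (SD, n = 3 each). The averaged fold change was -0.87 (SE 0.69, adjusted p = 0.502), an error too wide to place it with either set of genes.

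Of the Jun genes, junbb (ENSDARG00000104773, chromosome 3, 7768815 to 7770219, minus strand), one of the JunB copies, was lower in ablated cells in the averaged comparison. At 2 dpi it had 251, 130.5 and 62.6 CPM in the ablated and 228, 283 and 145 CPM in the unablated libraries. The 4 dpi libraries had 136, 354 and 171 CPM in the ablated and 267, 505 and 727 CPM in the unablated libraries. The 7 dpi libraries had 72.7, 117 and 137 CPM in the ablated and 628, 462 and 275 CPM in the unablated libraries. The groups were apart at 7 dpi and overlapped before, and 8 of 9 pairs were lower in the ablated library, the exception being replicate 1 at 2 dpi. The averaged fold change was -1.27 (SE 0.32, adjusted p = 0.0213), and -0.56, -1.18 and -2.06 at 2, 4 and 7 dpi, none of which passed on its own (adjusted p = 0.684, 0.414 and 0.714). The effect at 7 dpi minus that at 2 dpi was -1.50 (SE 0.77) and did not pass (adjusted p = 0.539, with the block 0.276). The averaged call was lost without ablated 2 dpi replicate 2 (adjusted p = 0.0515), ablated 4 dpi replicate 1 (0.0537), ablated 4 dpi replicate 3 (0.0524) or unablated 4 dpi replicate 3 (0.0528). Among the libraries with a date it held (-1.28, adjusted p = 0.0283).

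The other JunB copy, junba (ENSDARG00000074378, chromosome 1, 51098615 to 51100171, minus strand), was lower in all 9 ablated libraries than in their unablated partners, by ratios of 0.216 to 0.883. It had 78.2, 115 and 38.1 CPM in the ablated and 88.6, 182 and 51.2 CPM in the unablated libraries at 2 dpi, where the groups overlapped. At 4 dpi it had 84.03, 100.5 and 101 CPM in the ablated and 121, 151 and 285 CPM in the unablated libraries, and at 7 dpi 40.6, 124 and 116 CPM in the ablated and 188, 288 and 159 CPM in the unablated libraries. At both later times the ablated libraries were all below the unablated ones. The averaged fold change of -0.87 (SE 0.31) missed the threshold without the block (adjusted p = 0.0939) and passed with it (-0.86, adjusted p = 0.00625). Same-numbered libraries deviated together to a varying degree (correlations of 0.187 to 0.593 with group means removed), and the block compares each ablated library with its own partner.

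jun itself (ENSDARG00000043531, chromosome 20, 15653154 to 15655103, plus strand), the gene of the c-Jun protein, did not separate the treatments. It had 255, 206 and 127 CPM in the ablated and 175, 227 and 124 CPM in the unablated libraries at 2 dpi, and 323, 584 and 663 CPM in the ablated and 462, 445 and 801 CPM in the unablated libraries at 4 dpi. At 7 dpi it had 124, 568 and 464 CPM in the ablated and 557, 1009 and 517 CPM in the unablated libraries. The groups overlapped at every time, 6 of 9 pairs were lower when ablated, and the averaged fold change was -0.27 (SE 0.30, adjusted p = 0.655). What jun showed instead was a difference between times, given further on.

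Opposite in direction were fosl1a and fosl2, which encode the Fos-related proteins Fra-1 and Fra-2. fosl1a (ENSDARG00000015355, chromosome 14, 30399162 to 30407372, minus strand) stood at 684, 423 and 210.2 CPM in ablated libraries at 2 dpi, against 81.6, 30.2 and 11.1 CPM in unablated ones. Its 4 dpi levels were 242, 115 and 243 CPM in the ablated and 207, 25.2 and 87.9 CPM in the unablated libraries. Its 7 dpi levels were 23.2, 112 and 451 CPM in the ablated and 204, 78.1 and 389 CPM in the unablated libraries. The groups were far apart at 2 dpi and overlapped at 4 and 7 dpi, where ablated 7 dpi replicate 1 held the lowest ablated level and was below its partner. The 2 dpi fold change was 3.42 (SE 1.02), which missed the threshold without the block (adjusted p = 0.0839) and passed with it (3.70, SE 0.67, adjusted p = 0.00472). It was 0.91 at 4 dpi (adjusted p = 0.810) and -0.20 at 7 dpi (adjusted p = 0.992).

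fosl2 (ENSDARG00000040623, chromosome 17, 41313751 to 41330054, plus strand) had nearly the same level in the ablated libraries of 2 dpi, 144, 130.3 and 143 CPM, against 44.3, 21.8 and 22.9 CPM in the unablated ones. Levels at 4 dpi were 93.03, 56.3 and 108 CPM in the ablated and 40.96, 17.3 and 69.3 CPM in the unablated libraries. Levels at 7 dpi were 15.3, 107 and 177 CPM in the ablated and 66.5, 81.7 and 162 CPM in the unablated libraries. Again the groups were apart only at 2 dpi, and the 1 pair of 9 that was lower when ablated was replicate 1 at 7 dpi. The fold change was 2.23 at 2 dpi (SE 0.68, adjusted p = 0.0910, with the block 0.00585), 1.02 at 4 dpi (adjusted p = 0.613) and -0.05 at 7 dpi (adjusted p = 0.997).

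atf3 (ENSDARG00000007823, chromosome 20, 37891754 to 37897858, plus strand), a stress-induced factor that is known from regenerating axons in zebrafish and mammals, had 57.04, 123 and 94.2 CPM in the ablated and 14.6, 33.9 and 6.01 CPM in the unablated libraries at 2 dpi. At 4 dpi it had 39.4, 26.1 and 43.9 CPM in the ablated and 16.5, 4.52 and 24.7 CPM in the unablated libraries. At 7 dpi it had 6.30, 22.2 and 54.3 CPM in the ablated and 25.3, 27.00 and 28.5 CPM in the unablated libraries. Ablated libraries were all above unablated ones at 2 and 4 dpi and lay on both sides of them at 7 dpi. The fold change was 2.33 at 2 dpi (SE 0.73, adjusted p = 0.102, with the block 0.0152), 1.26 at 4 dpi (adjusted p = 0.531) and 0.04 at 7 dpi (adjusted p = 0.997).

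**Figure D2:**
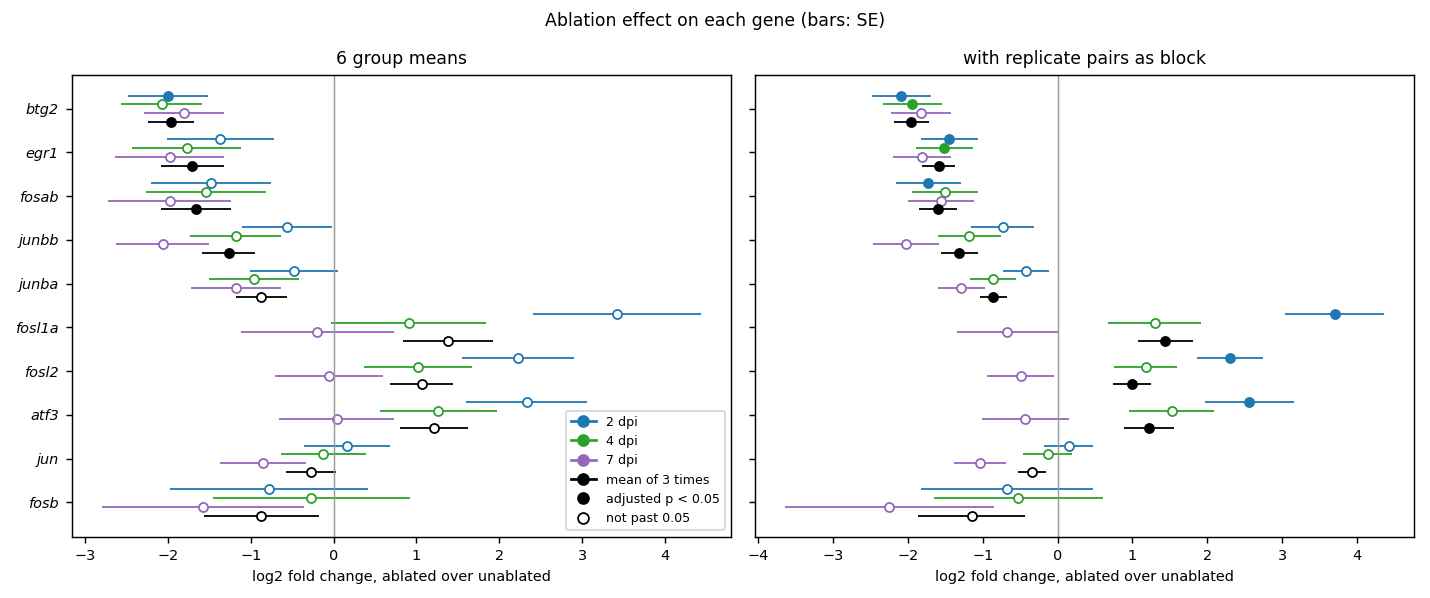
Log2 fold change of ablated over unablated (x axis) for each gene (rows) at 2, 4 and 7 dpi and averaged over the times, from the fit of 6 group means (left) and with replicate pairs as a block (right). Points are estimates, bars 1 SE, and filled points have an adjusted p under 0.05. The averaged values of btg2, egr1, fosab and junbb are filled and negative in both panels, while those of fosl1a, fosl2 and atf3 are positive and filled with the block only.

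Counted over the 10 genes, the averaged comparison of ablated with unablated cells had 4 falls (btg2, egr1, fosab and junbb) and 0 rises, where 3.69% of all tested genes fell and 4.34% rose (8.03% in either direction). With the block it had 5 falls, junba being the fifth, and 3 rises, fosl1a (adjusted p = 0.0196), fosl2 (0.0159) and atf3 (0.0238), where 10.4% of all genes fell and 11.1% rose. Without the block the averaged values of these 3 were 1.38 (adjusted p = 0.131), 1.06 (0.0931) and 1.21 (0.0772). DESeq2 without the block called all 3 (adjusted p = 0.0439, 0.0321 and 0.0243), beside 2937 of all genes. Among the libraries with a date, edgeR called fosl1a (0.0493) and fosl2 (0.0476) but not atf3 (0.105). Of the 18 fits that left out 1 library, fosl1a passed in 0 (adjusted p 0.0591 to 0.348), fosl2 in 1 (0.0175 to 0.209) and atf3 in 2 (0.0285 to 0.189). The lowest adjusted p of fosl2 and of atf3 came without ablated 7 dpi replicate 1. The median of the 10 averaged log2 fold changes was -0.87, beside -0.04 over all tested genes. It lay between the values of fosb and junba, both negative, in a set that holds genes of both signs.

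At 2 dpi 1 of the 10 genes was past the threshold, btg2, beside 2.25% of all genes (0.856% lower and 1.39% higher). With the block there were 6, the falls of btg2, egr1 and fosab and the rises of fosl1a, fosl2 and atf3, beside 14.4% of all genes (6.87% lower and 7.56% higher). DESeq2 without the block called 4, btg2 (adjusted p = 0.00126), fosl1a (0.00365), fosl2 (0.0136) and atf3 (0.0187), beside 1745 of all genes. At 4 dpi edgeR called 0 of the 10 and 0.0946% of all genes. At 4 dpi 4 of the 10 had an unadjusted p under 0.05, beside 2354 of all 20093 genes. DESeq2 called 1 (btg2, adjusted p = 0.00218), beside 713 of all genes, and the block called 2 (btg2 and egr1) beside 8.62% of all genes (3.93% lower and 4.69% higher). At 7 dpi edgeR called 0 of the 10 and 0% of all genes, and 5 of the 10 had an unadjusted p under 0.05, beside 1328 of all 20093 genes. DESeq2 called 1, again btg2 (-1.75, adjusted p = 0.0449), beside 126 of all genes. With the block 0 of the 10 and 0.00498% of all genes were called at 7 dpi. The median log2 fold change of the 10 genes was -0.52 at 2 dpi, -0.61 at 4 dpi and -1.38 at 7 dpi, beside -0.03, -0.07 and 0.00 over all genes.

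By overlap alone, 2 of the 10 genes were lower without overlap at 2 dpi and 3 were higher, where 11.6% and 10.5% of all genes were. At 4 dpi 4 were lower (btg2, egr1, fosab and junba) and 1, atf3, was higher, where 11.1% of all genes were lower and 13.7% higher. At 7 dpi 4 were lower (btg2, egr1, junba and junbb) and 0 were higher, where 5.04% of all genes were lower and 4.28% higher. Within pairs, btg2, egr1, fosab, junba and junbb were lower in at least 8 of 9 pairs, which 12.3% of all genes were, and fosl1a and fosl2 were higher in 8, where 11.8% of all genes were higher in at least 8.

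**Figure D3:**
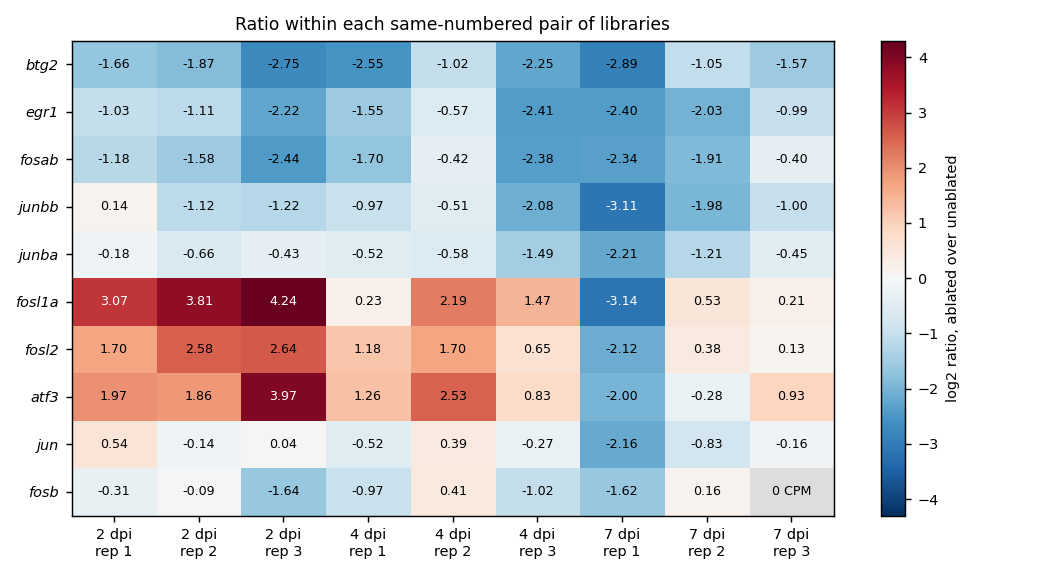
Log2 ratio of the ablated to the unablated library of the same number (colour and printed value) for each gene (rows) in the 9 pairs (columns, by time and replicate). Blue cells are lower and red cells higher in the ablated library, and the grey cell marks fosb in a library without a count. The btg2, egr1, fosab and junba rows are blue throughout, and the replicate 1 column of 7 dpi is blue in all 10 rows.

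The 7 dpi pair of replicate 1 differed from the other 8 pairs in that all 10 genes were lower in its ablated library. There fosl1a was at a ratio of 0.114, fosl2 at 0.230 and atf3 at 0.250, each the lowest of its 9 ratios. Without that ablated library the 7 dpi fold changes were 0.34 for fosl1a, 0.46 for fosl2 and 0.51 for atf3, none of them past the threshold.

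Whether the ablation effect differed between times was tested directly. With the block, fosl1a and fosl2 had a lower effect at 7 than at 2 dpi: the difference of log2 fold changes was -3.62 for fosl1a (SE 1.35, adjusted p = 0.383) and -4.38 with the block (adjusted p = 0.0289). For fosl2 it was -2.28 (SE 0.93, adjusted p = 0.411) and -2.80 with the block (adjusted p = 0.0329). For atf3 it was -2.30 (adjusted p = 0.450) and did not pass with the block either (0.0716). Without the block edgeR called 0 of the 10 genes and 0% of all genes here, and DESeq2 called 0 of the 10, beside 290 of all genes. At an unadjusted p under 0.05 were 3 of the 10, beside 2060 of all 20093 genes. With the block edgeR called fosl1a and fosl2, where 4.29% of all genes were called (2.35% with a lower effect at 7 dpi). That fit was not repeated with a library left out. For btg2 the difference was 0.19 (SE 0.66, adjusted p = 0.968) and for egr1 -0.61 (SE 0.90, adjusted p = 0.898), errors that leave room for changes in either direction. Between 4 and 2 dpi 0 of the 10 genes had a called difference by edgeR, with or without the block, or by DESeq2. Of all genes edgeR called 0% without and 0.0796% with the block there, and DESeq2 called 25 genes. There 0 of the 10 had an unadjusted p under 0.05, beside 919 of all 20093 genes. The share of counts from mitochondrial genes moved with the contrast of 7 and 2 dpi. At 2 dpi it was 4.32, 10.003 and 9.49% in ablated replicates 1, 2 and 3, against 6.02, 12.8 and 12.2% in the unablated ones, and thus lower in the ablated library of each pair. At 7 dpi it was 11.4, 11.5 and 10.2% in the ablated replicates, against 5.28, 10.8 and 5.67% in the unablated ones, higher in the ablated library of each pair. The part of this share in the levels of the genes was not tested.

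Levels were also compared between times within a treatment. Unablated larvae had no injury, so for them dpi marks age only. Where sequencing names hold a date, those of 2 dpi and 7 dpi libraries differ. Time and date therefore cannot be told apart in these comparisons. In ablated cells edgeR called 0 of the 10 genes between 2 and 7 dpi, beside 6.75% of all genes. Among the 10, 2 had an unadjusted p under 0.05, beside 4568 of all 20093 genes, and DESeq2 called 1, btg2 (1.35, adjusted p = 0.0343), beside 3119 of all genes. btg2 averaged 68.9 ± 28.5, 203 ± 41.4 and 177 ± 73.7 CPM at 2, 4 and 7 dpi (SD, n = 3 each), and its 7 dpi libraries were all above its 2 dpi libraries (1.36, SE 0.48, adjusted p = 0.0932). atf3 averaged 91.4 ± 33.1, 36.5 ± 9.26 and 27.6 ± 24.4 CPM, with the 2 dpi libraries all above the 4 dpi ones, and differed by -1.73 between 2 and 7 dpi (adjusted p = 0.155). For btg2 the 3 ablated means (68.9 ± 28.5, 177 ± 73.7 and 203 ± 41.4 CPM) were the lowest of the 6 groups, followed by unablated 2 dpi with 275 ± 33.96 CPM, whose range met that of ablated 4 dpi. When the 6 groups of a gene were put in order of their means, 3 pairs of neighbouring groups over all 10 genes had ranges that did not overlap. These were ablated 7 above ablated 2 dpi and unablated 7 above unablated 2 dpi for btg2, and ablated 2 above ablated 4 dpi for atf3. The order was set by the same values. No share over all genes was computed for separations between times, so those given here cannot be set against a background.

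In unablated cells jun averaged 175 ± 51.3 CPM at 2 dpi, 569.6 ± 201 CPM at 4 dpi and 694 ± 274 CPM at 7 dpi (SD, n = 3 each). The increase between 2 and 7 dpi was 1.99 (SE 0.53, adjusted p = 0.0482), the 1 call among the 10 genes, beside 3.86% of all genes (1.15% higher). It was lost without any of the 6 libraries concerned: adjusted p was 0.0599 without unablated 7 dpi replicate 1, 0.150 without replicate 2 and 0.135 without replicate 3 of that time, and 0.0692, 0.130 and 0.191 without unablated 2 dpi replicates 1, 2 and 3. In unablated cells btg2 averaged 275 ± 33.96, 855 ± 422 and 618 ± 201 CPM at the 3 times, and fosl1a averaged 40.95 ± 36.5, 107 ± 92.1 and 224 ± 157 CPM. The differences of 7 minus 2 dpi were 1.17 for btg2 (adjusted p = 0.164), 2.45 for fosl1a (0.157) and 1.80 for fosl2 (0.129). The median of the 10 genes in this comparison was 1.11, beside 0.13 over all genes. Here too age and the date in the names cannot be told apart.

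Some of the genes varied together beyond the group means. After the mean of each group was removed from log2 CPM, jun and junba had a Pearson correlation of 0.855 over the 18 libraries (Spearman 0.862, both adjusted permutation p = 0.00045 over 45 pairs of genes, the smallest that these permutations can give). The correlation of fosl1a with fosl2 was 0.804 (Spearman 0.773, adjusted permutation p = 0.00112 and 0.00787), and that of fosl2 with atf3 was 0.738 (Spearman 0.637, adjusted permutation p = 0.00690 and 0.0326). Without the 2 libraries farthest from the median the Pearson values were 0.819, 0.657 and 0.521. btg2 deviated with jun (0.608, Spearman 0.668, adjusted permutation p = 0.0344 and 0.0326) and with junba (0.584, Spearman 0.664, adjusted permutation p = 0.0370 and 0.0326), and the Pearson values without the 2 farthest libraries were 0.507 and 0.551. junbb correlated with junba at 0.684 (Spearman 0.651, adjusted permutation p = 0.0158 and 0.0326) and with jun at 0.649 (Spearman 0.639, adjusted permutation p = 0.0228 and 0.0326). Without the 2 farthest libraries these were 0.666 and 0.702. fosb and fosl1a had -0.634 (Spearman -0.637, adjusted permutation p = 0.0249 and 0.0326), or -0.394 without the 2 farthest. Correlations also joined jun and junba to atf3, and jun to fosl2. Those of junba with fosl2 (0.429) and of junbb with fosl2 (0.0946) and atf3 (0.176) did not pass. junba correlated with atf3 at 0.671 (Spearman 0.591, adjusted permutation p = 0.0158 and 0.0563) and jun with atf3 at 0.592 (Spearman 0.459, adjusted permutation p = 0.0370 and 0.151), and without the 2 farthest libraries the Pearson values were 0.501 and 0.461. That of jun with fosl2 was 0.604 (Spearman 0.393, adjusted permutation p = 0.0344 and 0.230) and rested on the 2 farthest libraries, without which it was 0.256. fosl1a correlated with atf3 at 0.695 (Spearman 0.536, adjusted permutation p = 0.0141 and 0.0855). For fosab with junbb the correlation was 0.602 (Spearman 0.544, adjusted permutation p = 0.0344 and 0.0814). For fosab with btg2 it was 0.573 (Spearman 0.527, adjusted permutation p = 0.0428 and 0.0857). The Pearson values of these without the 2 farthest libraries were 0.494, 0.399 and 0.434. Between btg2 and egr1, which it resembled in its response to ablation, the correlation was 0.427 (Spearman 0.437, adjusted permutation p = 0.159 and 0.178). Removing group means ties the 3 libraries of a group to each other, and same-numbered libraries are not independent. Both make these p-values smaller than independent values would give.

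**Figure D4:**
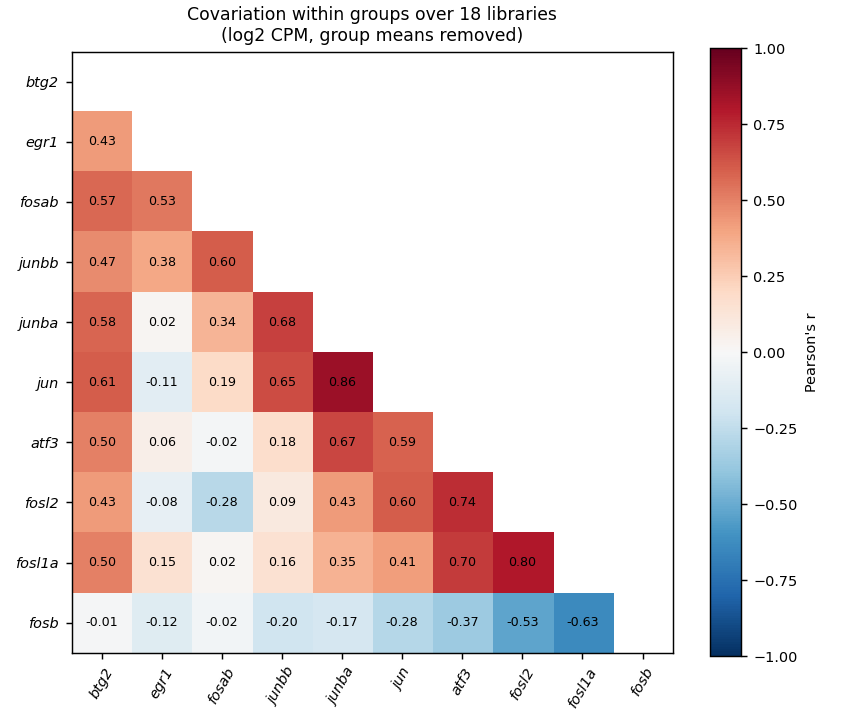
Pearson correlation (colour and printed value) of log2 CPM between pairs of genes over the 18 libraries after group means were removed. The highest value is that of jun with junba, 0.86, followed by fosl1a with fosl2, 0.80, and fosb has negative values with all 9 other genes.

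Among 8921 other genes with a symbol and a mean of at least 5 CPM, those most like btg2 over the 18 libraries were gab1 (Pearson 0.915 of log2 CPM), dusp2 (0.908), cyth1b (0.901), ctdspla (0.899) and ppap2d (0.898). For egr1 they were dusp2 (0.877), tm4sf18 (0.848), nr4a1 (0.834), tcf7l1a (0.809) and tom1 (0.805). For fosab they were setd7 (0.868), dusp2 (0.829), phc2a (0.824), atp1b3a (0.821) and znf1152 (0.816). dusp2, the gene of a nuclear phosphatase that acts on MAP kinases, stood in all 3 sets. These values include the difference between treatments, and with group means removed dusp2 correlated at 0.584 with btg2, 0.738 with egr1 and 0.730 with fosab.

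**Figure D5:**
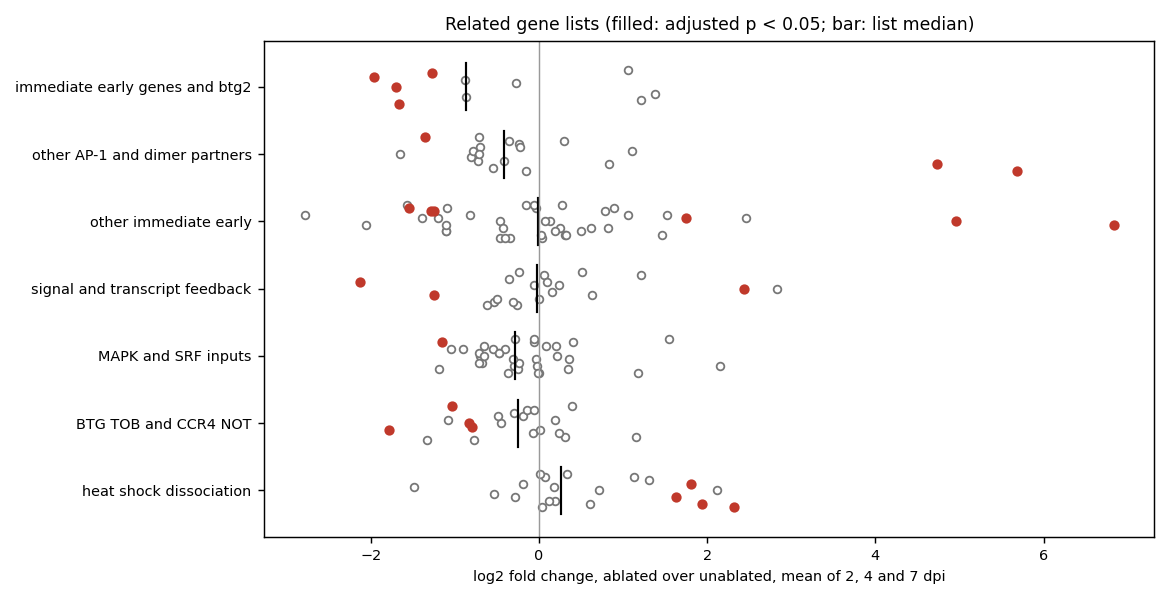
Averaged log2 fold change of ablated over unablated (x axis) for the genes of each list (rows), with 1 point a gene, filled where the adjusted p was under 0.05, and a bar at the list median. The first row shows the 10 genes described here, with a median of -0.87, and the filled points of the heat shock list are all positive.

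Other AP-1 genes and their partners were measured in 19 cases of 21 after filtering, and 2 rose and 1 fell in the averaged comparison (3 and 4 with the block). Over all tested genes 4.34% rose and 3.69% fell in that comparison, and 11.1% and 10.4% with the block. fosl1b, the paralog of fosl1a, reached 54.1 ± 35.7 CPM in ablated libraries at 2 dpi, against 0.429 ± 0.220 CPM in unablated ones (SD, n = 3 each), or 6.98 on the log2 scale (SE 1.43, adjusted p = 0.0203). jdp2b, which encodes a repressor that pairs with Jun proteins, averaged 21.2 ± 14.6 CPM in the ablated and 55.8 ± 33.6 CPM in the unablated libraries (SD, n = 9 each over the 3 times; -1.36, adjusted p = 0.0446). The other rise was batf3, at low levels of 0.759 ± 0.890 CPM in the ablated and 0.0539 ± 0.113 CPM in the unablated libraries (adjusted p = 0.0487). Its ablated libraries at 7 dpi ran from 0 to 2.81 CPM, with a mean of 0.943 ± 1.61 CPM (SD, n = 3) that was carried mostly by the highest library. The median of the 19 genes was -0.42.

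Of 45 other immediate early genes 42 were tested, and 3 rose and 3 fell, beside 4.34% and 3.69% of all genes (5 and 9 with the block, beside 11.1% and 10.4%), with a median of -0.01. The falls included nr4a1, a nuclear receptor gene, with 11.6 ± 4.39 CPM in the ablated and 30.3 ± 16.6 CPM in the unablated libraries (-1.28, adjusted p = 0.0135), and ier2b, listed under a clone name, with 10.2 ± 5.31 CPM in the ablated and 29.4 ± 12.5 CPM in the unablated libraries (-1.54, adjusted p = 0.0138). The rises included ptgs2a, a cyclooxygenase gene, with 52.3 ± 73.6 CPM in the ablated and 3.49 ± 9.10 CPM in the unablated libraries (4.96, adjusted p = 0.0229), and ccn1l1, which was close to absent from unablated libraries (1.33 ± 1.42 CPM in the ablated and 0.00823 ± 0.0247 CPM in unablated, adjusted p = 0.00949). The remaining calls, chosen for mention after their values were seen, were the rise of socs3b (1.75, adjusted p = 0.0298), a feedback inhibitor of cytokine signalling, and the fall of per1a (-1.25, adjusted p = 0.0311), a clock gene. At single times edgeR called 0 of the 42, beside 2.25%, 0.0946% and 0% of all genes at 2, 4 and 7 dpi. An unadjusted p under 0.05 was reached by 13 of the 42 at 2 dpi, 9 at 4 dpi and 4 at 7 dpi. Over all 20093 genes it was reached by 3312, 2354 and 1328. The block called 10 higher and 5 lower at 2 dpi (all genes 7.56% and 6.87%), 2 higher and 5 lower at 4 dpi (all genes 4.69% and 3.93%) and 0 at 7 dpi (all genes 0.00498%).

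Feedback regulators of these signals were split as well: of 20 tested, 1 rose and 2 fell, beside 4.34% and 3.69% of all genes (3 and 3 with the block, beside 11.1% and 10.4%), with a median of -0.03. dusp2 averaged 104 ± 48.6 CPM in the ablated and 463 ± 356 CPM in the unablated libraries (-2.13, SE 0.34, adjusted p = 0.00191). spry2, an inhibitor of receptor tyrosine kinase signalling, had 19.4 ± 8.75 CPM in the ablated and 47.8 ± 33.5 CPM in the unablated libraries (-1.25, adjusted p = 0.0146). nfkbiaa, the gene of an inhibitor of NF-kappaB that this factor itself switches on, rose at 2 dpi to 62.3 ± 39.4 CPM in ablated cells, against 2.68 ± 1.28 CPM in unablated cells (4.54, adjusted p = 0.0239). Among 35 genes of the MAP kinase and serum response factor inputs 0 rose and 1 fell, beside 4.34% and 3.69% of all genes (2 and 4 with the block, beside 11.1% and 10.4%), and the median was -0.28. The fall was that of map3k5, a stress-activated kinase, with 22.8 ± 16.6 CPM in the ablated and 43.5 ± 17.1 CPM in the unablated libraries (-1.16, adjusted p = 0.0319).

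Of 20 tested genes of the BTG/TOB family, of the CCR4-NOT complex and of proteins that work with them, 0 rose and 4 fell, beside 4.34% and 3.69% of all genes (1 and 8 with the block, beside 11.1% and 10.4%), with a median of -0.25. tob1a, a BTG/TOB gene, had 76.4 ± 10.99 CPM in the ablated and 452 ± 111 CPM in the unablated libraries at 2 dpi (-2.56, SE 0.55, adjusted p = 0.0250). At 4 dpi it had 199 ± 42.1 CPM in the ablated and 767 ± 272 CPM in the unablated libraries (adjusted p = 0.144, with the block 0.00234), and at 7 dpi 407 ± 245 CPM in the ablated and 721 ± 527 CPM in the unablated libraries (adjusted p = 0.828). Its paralog tob1b fell in the averaged comparison (-1.03, adjusted p = 0.0244), with 226 ± 141 CPM in the ablated and 424 ± 153 CPM in the unablated libraries. The other falls were pabpc1b, a poly(A)-binding protein gene (-0.84, adjusted p = 0.0103), and cnot6b, a deadenylase subunit gene (-0.80, adjusted p = 0.0424).

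Dissociation of tissue is known to switch on both immediate early and heat shock genes, so heat shock genes were also examined in these libraries. Of 20 heat shock genes 4 rose in ablated cells in the averaged comparison and 0 fell, beside 4.34% and 3.69% of all genes (7 and 1 with the block, beside 11.1% and 10.4%), with a median of 0.26. hspd1, a mitochondrial chaperonin gene, averaged 76.2 ± 57.2 CPM in the ablated and 19.8 ± 20.4 CPM in the unablated libraries (1.81, adjusted p = 0.00581), and its partner hspe1 373 ± 529.9 CPM in the ablated and 88.1 ± 102 CPM in the unablated libraries (1.63, adjusted p = 0.0194). hspb1, a small heat shock gene, averaged 82.9 ± 103 CPM in the ablated and 22.4 ± 33.04 CPM in the unablated libraries (2.32, adjusted p = 0.0130), and the co-chaperone gene bag3 61.2 ± 51.8 CPM in the ablated and 20.5 ± 28.2 CPM in the unablated libraries (1.94, adjusted p = 0.0386). The averaged values of the inducible heat shock genes hsp70.1 (0.04), hsp70.2 (-0.18), hsp70.3 (-0.28) and hsp70l (0.34) and of the co-chaperone gene dnajb1a (0.01) did not pass. These genes were chosen for mention outside the naming rule stated below. Other genes of the list that did not pass by edgeR had larger changes. Among them were hmox1a (2.11, adjusted p = 0.0795), hspa5 (1.31, 0.0561), hsph1 (1.14, 0.126) and hsp90aa1.1 (-1.48, 0.246). By time the list median was 0.85 at 2 dpi, 0.92 at 4 dpi and -0.45 at 7 dpi. The 4 called genes differed at 7 dpi, where hspd1 was at -0.23, bag3 at -0.17 and hspe1 at 0.39. There hspb1 was at 2.52, with 26.2 ± 3.87 CPM in the ablated and 4.57 ± 5.51 CPM in the unablated libraries (SD, n = 3 each, adjusted p = 0.714 by edgeR). The part of dissociation in the levels of the 10 genes was not tested.

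Markers of cell types other than RPE were also detected. The summed level of 18 mesenchyme and keratinocyte markers was higher in the ablated library of all 9 pairs, with 107 to 373 CPM in the ablated and 6.402 to 108 CPM in the unablated libraries at 2 dpi, 214 to 442 CPM in the ablated and 20.3 to 37.9 CPM in the unablated libraries at 4 dpi, and 41.1 to 295 CPM in the ablated and 19.5 to 165 CPM in the unablated libraries at 7 dpi. Its largest parts by median were the epithelial genes epcam (18.9 CPM), krt8 (15.1 CPM) and cdh1 (14.4 CPM). Among its mesenchyme genes the median was 1.63 CPM for pdgfra, but 0.0385 CPM for col1a1a and col1a2 and 0.0163 CPM for dcn. The sum of 13 Müller glia markers was lower in the ablated library of 8 of 9 pairs, with 911 to 2438 CPM in the ablated and 4089.8 to 6991 CPM in the unablated libraries at 2 dpi, 6169 to 7894 CPM in the ablated and 6818 to 16153 CPM in the unablated libraries at 4 dpi, and 4409.5 to 12816 CPM in the ablated and 6336 to 8703 CPM in the unablated libraries at 7 dpi. By median over the 18 libraries, glula (3373 CPM) and glulb (1185 CPM) were the largest parts of this sum, and apoeb reached 7148 CPM at most. The medians of gfap and s100b were only 0.566 and 0.301 CPM, so the sum mainly follows a few of its genes. Over all 18 libraries the sums ran from 496 to 5084 CPM for other pigment cells, from 102 to 2802 CPM for photoreceptors and from 499 to 2049 CPM for retinal progenitors. In the list of other pigment cells the median was 513 CPM for gch2 and 729 CPM for pnp4a, against 0 for xdh, 0.0662 for aox5 and 0.0922 for ltk. The sum of the 24 RPE markers was lower in 7 pairs. At 2 dpi the RPE sum was 83023 to 90873 CPM in the ablated and 140256 to 190184 CPM in the unablated libraries, and the sum of 20 retinal neuron markers was 16.8 to 29.7 CPM in the ablated and 113 to 379 CPM in the unablated libraries. Macrophage markers were lower in 3 pairs and higher in 6, with 25.00 to 1392 CPM in the ablated and 14.1 to 140.3 CPM in the unablated libraries at 7 dpi, and neutrophil markers were lower in 1 pair. By median the neutrophil sum was mostly nccrp1 (35.9 CPM) and srgn (34.1 CPM), with mpx at 0.0132 and lyz at 0.0453 CPM. The part of these cell types in the levels of the 10 genes was not tested.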

How the data were processed

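The authors deposited 1 table for each time, 3 in all, with raw read counts and TPM for 34326 genes per the file headers. Positions follow GRCz10 per the submitters' processing notes, with the aligner, the counting rule and the use of strand not given in the sources used here. All 18 count columns were matched to a labelled library. The label of unablated 4 dpi replicate 1 was followed, although its sequencing name calls it positive. The 10 genes and the gene lists were chosen with earlier results of these data known.

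Counts were analysed with edgeR 4.0.16 in R 4.3.3: filterByExpr by group (20093 of 29481 genes with a count), TMM scaling, and a robust quasi-likelihood fit of 6 group means (12 residual degrees of freedom, common biological coefficient of variation 79.9%), with Benjamini-Hochberg adjustment at 0.05. CPM is TMM-scaled, and the deposited TPM was used only to compare genes. The ablated group mean minus the unablated one was taken at every time, as were their mean, their differences between times, and 7 minus 2 dpi within a treatment. After group means were removed, ablated and unablated libraries of the same number correlated at 0.187 to 0.593 in all 9 pairs, and of other numbers at -0.44 to 0.18. With means of 3 libraries removed, positive values for same numbers force lower ones for other numbers, so the contrast is partly built in. At 2 dpi replicates 2 and 3 have the same date in their names. Across them values were 0.183 and 0.157, beside 0.235 and 0.369 within the pairs of replicates 2 and 3. The replicate numbers come from the labels and were therefore treated as pairs, with 6 residual degrees of freedom in the block. Alternatives were no filter, RLE factors, DESeq2 1.42.0, the block, the libraries with a date in their name, the times of a contrast alone, and each library left out in turn.

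Named from each related list were up to 4 genes past the threshold by adjusted p at each time and for the average, and the 5 genes most like btg2, egr1 and fosab by Pearson correlation. A further related list is not reported here. The pipeline was tested on simulated counts. Raw counts of the genes other than fosb were at least 155 per library (atf3), and those of fosb ran from 0 to 149. How reads shared by paralogs, such as junba and junbb or fosl1a and fosl1b, were counted is not known.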

Additional observations from a re-analysis of the deposited data

Results flagged for a closer look

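The response of fosl1a to ablation differed between times when replicate pairs were taken as a block: the log2 fold change of ablated over unablated at 7 dpi minus that at 2 dpi was -4.38 (SE 0.92, adjusted p = 0.0289 by edgeR), and -3.62 without the block (adjusted p = 0.383). The same difference for fosl2 was -2.80 (SE 0.62, adjusted p = 0.0329), and -2.28 without the block (adjusted p = 0.411). Both genes were lower in ablated 7 dpi replicate 1 than in its unablated partner and higher in the ablated library of the other 8 pairs. Without the block, leaving out 1 library gave -5.14 to -2.95 for fosl1a and -2.98 to -1.76 for fosl2. Each was called in 0 of 12 such fits. The fit with the block was not repeated with a library left out, so its dependence on the 7 dpi replicate 1 pair was not tested.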

How the results depend on the processing

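Of 50 single-gene values, 49 kept their direction and their side of the threshold without the low-count filter, 48 with RLE factors, 40 with DESeq2 and 40 among the libraries with a date in their name, as did 38 of 40 in fits of the times of a contrast alone and 29 of 43 with the replicate block, under which 13 more passed. Leaving out 1 library did so in 402 of 438 fits. The number of the 10 genes called at 2 dpi was 1, and 4 with DESeq2, 6 with the replicate block, 0 among the libraries with a date, 0 with the 2 dpi libraries alone and 0 to 0 with 1 library left out. At 4 dpi it was 0, and 1 with DESeq2 and 2 with the replicate block. At 7 dpi it was 0, and 1 with DESeq2. Averaged over the times it was 4, and 7 with DESeq2, 8 with the replicate block and 2 to 6 with 1 library left out, 2 being reached without ablated 4 dpi replicate 1 or replicate 3. For the difference of effects between 7 and 2 dpi it was 0, and 2 with the replicate block. For ablated cells over time it was 0, and 1 with DESeq2. For unablated cells over time it was 1, and 0 without the filter, with RLE factors, with the 2 and 7 dpi libraries alone and in the whole range of 0 to 0 with 1 library left out, and 3 among the libraries with a date. The time contrasts within a treatment cannot take the block.

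Values that changed sign were none of them past the threshold. jun at 2 dpi was -0.0821 and at 4 dpi 0.0489 among the libraries with a date, where fosl1a and fosl2 at 7 dpi were 0.27 and 0.23. fosl2 at 7 dpi was 0.0015 with RLE factors and 0.0015 with DESeq2, and atf3 at 7 dpi was -0.43 with the replicate block. With 1 library left out the range was -0.0876 to 0.43 for jun and -0.84 to 0.17 for junba at 2 dpi, -0.33 to 0.23 for jun and -1.14 to 0.0943 for fosb at 4 dpi, and -1.73 to 0.48 for fosl1a, -0.77 to 0.46 for fosl2 and -0.92 to 0.51 for atf3 at 7 dpi. The cause was not tested.

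Counts over all genes moved more. At 2 dpi 452 genes were called, and 1745 with DESeq2, 2901 with the block, 78 with the 2 dpi libraries alone and 19 to 252 with 1 library left out. At 4 dpi 19 were called, and 35 without the filter, 713 with DESeq2, 1732 with the block, 10 among the libraries with a date, 220 with that time alone and 0 to 27 with 1 library left out. At 7 dpi 0 were called, and 126 with DESeq2, 1 with the block and 0 to 3 with 1 library left out. For the average 1613 were called, and 2937 with DESeq2, 4310 with the block and 1018 to 1933 with 1 library left out. Differences of effects gave 0 calls, and 25 with DESeq2 and 16 with the block between 4 and 2 dpi, and 290 and 862 between 7 and 2 dpi. Over time 1356 genes were called in ablated cells, and 3119 with DESeq2, 557 with those times alone and 443 to 1368 with 1 library left out, and 776 in unablated cells, and 2569 with DESeq2, 2668 among the libraries with a date, 1 with those times alone and 0 to 1369 with 1 library left out. With 3 libraries a group and this spread, a difference that missed the threshold may still be present, and the error of fosb was too wide to read it in either direction.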
